A study of Saccharomyces cerevisiae with 21 samples.

Results

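The 34 genes described here encode nuclear subunits of the yeast respiratory chain and ATP synthase: 3 NADH dehydrogenases, 4 subunits of succinate dehydrogenase, 8 of the cytochrome bc1 complex, 1 cytochrome c, 8 of cytochrome c oxidase and 10 of ATP synthase. They were taken by name from a list of these complexes, which was chosen with earlier results of these data known. Shares of these genes set beside those of all genes are therefore descriptions. All 34 were found among the 5449 genes measured, each by a single probe set. That list leaves out some subunits, among them COR1, ATP1 and ATP3. Transcript levels of Saccharomyces cerevisiae were measured on 21 Affymetrix arrays in 7 groups of 3, from mid-log cultures grown at 30 °C in YPD, a rich glucose medium, or in CSM, which the labels do not spell out. The mutants lack parts of the tail module of Mediator, the complex that carries signals from DNA-bound activators to RNA polymerase II. Per the labels, gal11Δ med3Δ is MATα and carries kanMX4 deletions of MED3 and of MED15, the other name of GAL11. The gal11-myc med3Δ strain is MATa, has GAL11 tagged with 13 copies of MYC and MED3 replaced by URA3, and also has its chromosomal SRB4 deleted and supplied from a centromeric plasmid, which the other strains do not share. The wild type is MATa, and it shares the his3Δ1, leu2Δ0 and ura3Δ0 markers with both mutants and met15Δ0 with gal11Δ med3Δ. A further wild type, BY4742 in YPD, carries lys2Δ0 instead of met15Δ0. The labels give each strain as a genotype and do not say whether the 3 replicates came from separate cultures, so p-values measure the spread between these arrays, which may be technical.

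Budding yeast has no proton-pumping complex I. Single-subunit NADH dehydrogenases on either face of the inner mitochondrial membrane and succinate dehydrogenase feed electrons through ubiquinone to the bc1 complex, then through cytochrome c to cytochrome c oxidase, and ATP synthase uses the proton gradient that the bc1 complex and the oxidase build. On glucose these genes are partly repressed, and their transcription rests largely on the CCAAT-binding Hap2/3/4/5 complex, whose limiting activating subunit is Hap4. The haem-responsive activator Hap1 can also act on some of them, but whether Hap1 is active in the strains used here was not measured.

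The deposited values are log2 intensities from which each probe set's median had been subtracted, separately over the 9 arrays of the mutants and their wild type in YPD, the 9 CSM arrays and the 3 BY4742 arrays. A value of 0 is therefore a gene's own median in that medium, levels cannot be compared between genes or media, and only differences within a medium carry over. Differences below are mutant minus wild type on the log2 scale, with the standard error of a limma fit of all 21 arrays, and a gene rose or fell where its Benjamini-Hochberg adjusted p over the 5449 genes was under 0.05. Such values are relative to all genes on an array, and fewer cells making a transcript cannot be told apart from less of it per cell.

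The targeted genes followed the labels. GAL11 differed by -6.43 in YPD and -5.62 in CSM in gal11Δ med3Δ, against -0.59 and -0.55 in gal11-myc med3Δ, and PGD1 (MED3) differed by -4.51, -4.26, -4.30 and -4.05 in the same order. Some arrays and chromosomes stood apart. In gal11Δ med3Δ the 259 genes of chromosome V had a median difference of 0.79 in YPD, and in CSM the 387 genes of chromosome II had a median of -0.72 for gal11Δ med3Δ and of -0.74 for gal11-myc med3Δ, while the medians of the other 14 chromosomes lay between -0.02 and 0.15 in the 4 comparisons with wild type. Both CSM comparisons rest on the same 3 wild-type arrays, and whether the chromosome II shift lies in the mutants or in those wild-type arrays was not tested. Of the 34 genes, RIP1 alone lies on chromosome V and none on chromosome II. The subunit genes COR1, ATP1 and ATP3, which are not among the 34, do lie on chromosome II. On several arrays the departure of a gene from the other 2 arrays of its group followed gene length (Spearman rho, a description with no p). Over the 34 genes rho was 0.79 on CSM replicate 1 of gal11Δ med3Δ, 0.45 on YPD replicate 3 of the same mutant and 0.61 on wild type YPD replicate 1. Over all 5449 genes it was 0.15, 0.47 and -0.13 on those arrays, and -0.44 on gal11Δ med3Δ YPD replicate 2. On the CSM array the 20 genes shorter than 500 bp had a median deviation of -0.19 and the 6 of 1000 bp or more had 0.40. Without that array the CSM counts of gal11Δ med3Δ given next were the same, but QCR6 (-0.32, adjusted p = 0.0336) and ATP17 (0.25, adjusted p = 0.0347) passed and CYC1 and SDH4 did not. The label of gal11Δ med3Δ names no lys2 mutation, yet in the authors' deposited table its LYS2 was 86.7-fold below the wild type in YPD. The met15Δ0 marker of the wild type is not shared by the label of gal11-myc med3Δ. In the same deposited table MET17 (MET15) of that mutant nevertheless differed from wild type by only 1.1-fold in YPD and 1.03-fold in CSM, against 440-fold between the wild types.

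Most of the 34 respiratory chain and ATP synthase genes were lower in gal11Δ med3Δ than in wild type when the cells grew in YPD. There 24 of 34 fell and 1 rose, where 19.4% of all genes fell and 27.5% rose, and the median difference was -0.44, against 0.03 over all genes. The fall was shallow: only NDE1 and NDE2 fell at least 2-fold, where 2.81% of all genes did. For 26 genes all 3 mutant arrays lay below all 3 wild-type arrays and for 1 they lay above, which held for 23.1% and 29.3% of all genes. In gal11-myc med3Δ in YPD 7 fell and 1 rose, where 12.1% of all genes fell and 21.2% rose, with a median of -0.21. In CSM the gal11Δ med3Δ counts were 4 lower and 5 higher, where 18.4% of all genes fell and 27.1% rose, with a median of -0.05 against 0.04 over all genes. NDE1 alone fell at least 2-fold there, where 4.22% of all genes did. In gal11-myc med3Δ in CSM 2 fell and 1 rose, where 14.2% of all genes fell and 22.4% rose, with a median of -0.07 against 0.06 over all genes. None of the 34 genes lies on chromosome II, whose genes as a whole had negative differences in CSM, against the same wild-type arrays for both mutants. A fit without the genes of chromosomes II and V held 33 of the 34. In gal11Δ med3Δ in CSM 12.1% of these fell and 15.2% rose, against 13.6% and 27.8% of all genes in that fit. In gal11-myc med3Δ 3.0% fell and 3.0% rose, against 8.5% and 23.4%. Groups that did not overlap, mutant below or above wild type, were seen for 8 and 7 genes in gal11Δ med3Δ in CSM (24% and 34.2% of all genes), for 6 and 1 in gal11-myc med3Δ in YPD (17.4% and 24.6%) and for 14 and 7 in gal11-myc med3Δ in CSM (27.6% and 43.1%).

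The count of 24 in gal11Δ med3Δ in YPD stayed between 21 and 25 when any of the 6 arrays compared was left out. The count of 7 in gal11-myc med3Δ in YPD was 4 without wild type replicate 1 (9.1% of all genes), 4 without wild type replicate 2 (9.0%), 11 without gal11-myc med3Δ replicate 2 (10.3%) and 4 without gal11-myc med3Δ replicate 3 (10.3%). In YPD the arrays numbered 3 deviated together and away from those numbered 1 and 2. With the replicate number as a block and only the 9 YPD arrays fitted, the count was 12, where 17.8% of all genes fell in that fit. It was 2 with only the 9 YPD arrays and no block (9.3% of all genes) and 1 with only the 6 arrays compared (7.6%), so whether the share of these genes that fell lay above that of all genes depended on the fit. The YPD arrays numbered 3 were low in these genes in gal11-myc med3Δ and in wild type. The median over the 34 genes was -0.24, -0.22 and -0.27 in gal11Δ med3Δ replicates 1 to 3, 0.00, 0.16 and -0.18 in gal11-myc med3Δ, and 0.28, 0.24 and 0.02 in wild type, so gal11Δ med3Δ lay below every wild-type array, and gal11-myc med3Δ lay below the wild-type array of the same number each time while the groups overlapped. In CSM all 9 medians lay between -0.04 and 0.06. In that medium 2 in place of 4 genes fell in gal11Δ med3Δ without any of the 3 wild-type arrays, and 3 in place of 5 rose without wild type replicate 2 or 3; in gal11-myc med3Δ, leaving out any 1 of the 6 arrays left 1 in place of 2 falls. Arrays of gal11-myc med3Δ and wild type varied least in CSM (median gene SD 0.0463 and 0.0556, against 0.141 in gal11Δ med3Δ), and a fit of those 6 arrays alone gave 14 lower and 7 higher in gal11-myc med3Δ, where 25.1% of all genes fell and 39.0% rose. Group-wise array weights gave 12 lower (25.5% of all genes), and the 9 CSM arrays alone gave 8 (17.7%). The share that fell in gal11-myc med3Δ in CSM was thus below that of all genes in the fit of 21 arrays (5.9% against 14.2%) and above it in these fits (41.2%, 35.3% and 23.5%), and no direction is read from it.

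**Figure D1:**
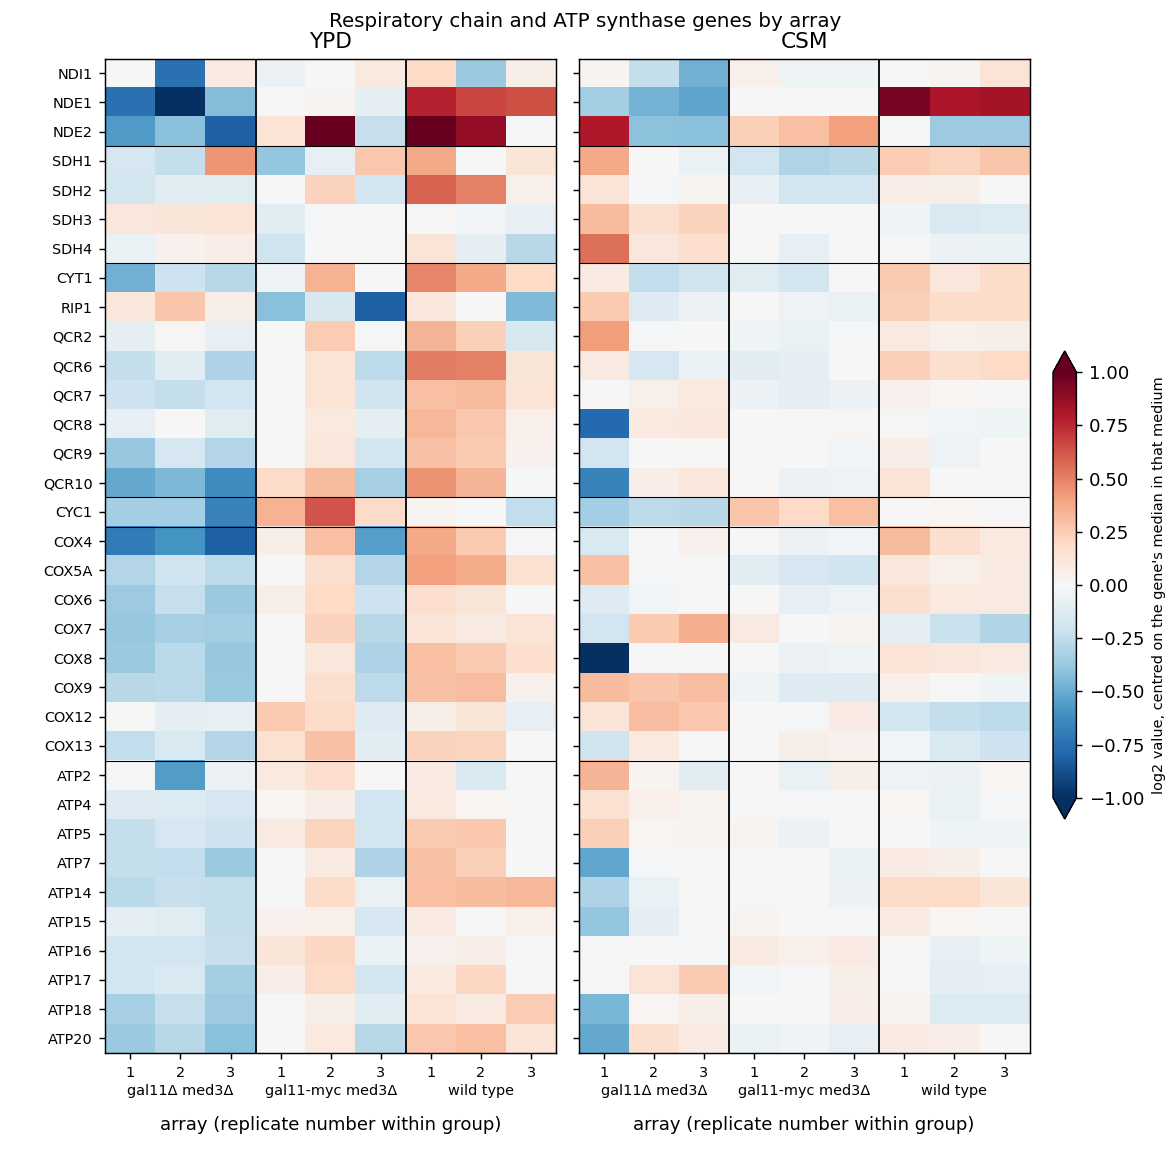
Centred log2 value of each of the 34 genes (rows, by complex) on each of 18 arrays (columns: gal11Δ med3Δ, gal11-myc med3Δ and wild type, replicates 1 to 3, in YPD at left and CSM at right); the colour scale is cut at -1 and 1. In YPD the 3 gal11Δ med3Δ columns are mostly blue and wild type replicates 1 and 2 mostly red, and in CSM the first gal11Δ med3Δ column departs from its neighbours, with COX8 at -1.13 and QCR8 at -0.78.

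**Figure D2:**
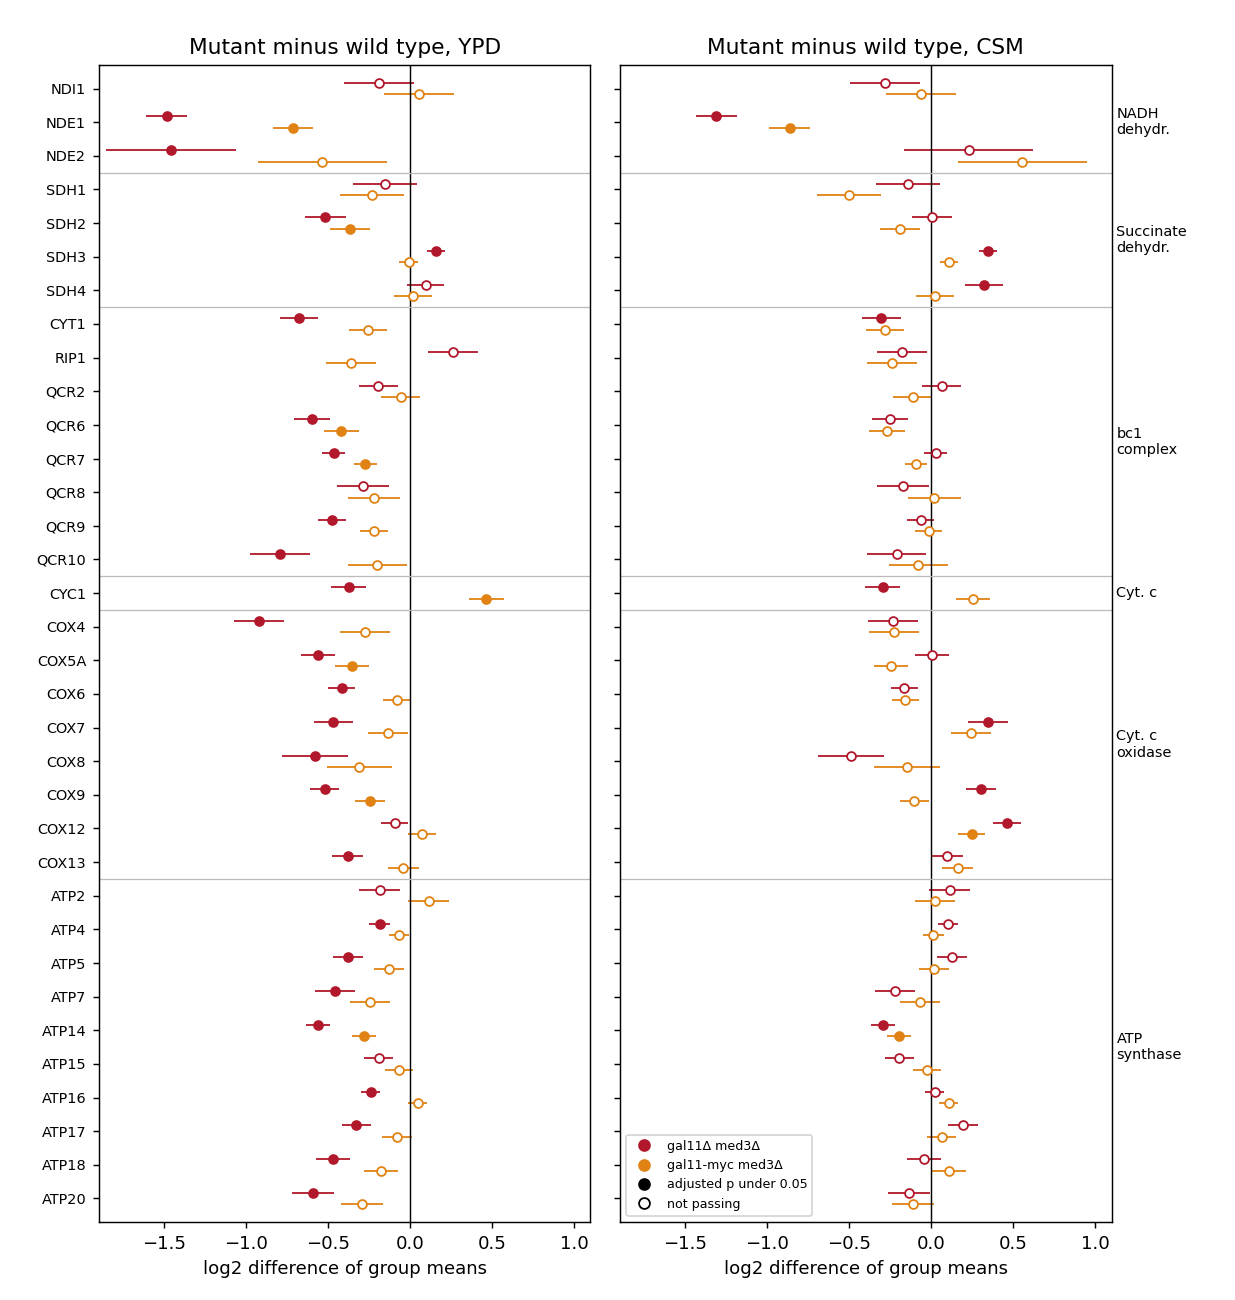
Log2 difference of group means, mutant minus wild type, for the 34 genes by complex in YPD and CSM; points are gal11Δ med3Δ (red) and gal11-myc med3Δ (orange), whiskers are ± 1 standard error of the limma fit, and filled points passed an adjusted p of 0.05. In YPD 24 red points are filled to the left of 0 and 1 to the right, and in CSM 4 and 5.

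Among the NADH dehydrogenases, NDE1 fell in all 4 comparisons and had the most negative difference of the 34 genes in each. NDE1 and NDE2 encode the external enzymes, which oxidise cytosolic NADH at the outer face of the inner membrane. In YPD NDE1 read -0.75, -1.20 and -0.43 on the gal11Δ med3Δ arrays, 0.00, 0.03 and -0.10 on the gal11-myc med3Δ arrays and 0.77, 0.67 and 0.64 on the wild-type arrays. In CSM it read -0.34, -0.47 and -0.53, then 0.00 on all 3 gal11-myc med3Δ arrays, then 0.95, 0.81 and 0.83 in wild type. The 3 strains did not overlap in either medium, with gal11Δ med3Δ lowest and wild type highest. The differences were -1.49 ± 0.12 (adjusted p = 6.16e-08) and -1.31 ± 0.12 (adjusted p = 1.8e-07) in gal11Δ med3Δ in YPD and CSM, and -0.71 ± 0.12 (adjusted p = 0.000299) and -0.86 ± 0.12 (adjusted p = 2.95e-05) in gal11-myc med3Δ.

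NDE2 behaved differently by medium. In YPD it read -0.57, -0.42 and -0.82 in gal11Δ med3Δ and 1.68, 0.88 and 0.00 in wild type, a difference of -1.46 ± 0.39 (adjusted p = 0.00606). The groups did not overlap, although the wild-type arrays spanned 1.68. In CSM NDE2 read 0.80, -0.41 and -0.42 in gal11Δ med3Δ and 0.00, -0.36 and -0.36 in wild type, and its difference of 0.23 ± 0.39 rested on replicate 1, without which it was -0.18. In gal11-myc med3Δ NDE2 spread widely in YPD (0.14, 1.04 and -0.23) and did not pass in either medium, with -0.54 ± 0.39 and 0.56 ± 0.39. NDI1, the internal enzyme that oxidises matrix NADH, passed in no comparison, with differences between -0.28 and 0.05.

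Succinate dehydrogenase oxidises succinate in the citric acid cycle, and in gal11Δ med3Δ its iron-sulphur subunit fell in YPD while both membrane anchors rose in CSM. SDH2, the iron-sulphur subunit, read -0.18, -0.11 and -0.12 in gal11Δ med3Δ in YPD and 0.59, 0.50 and 0.05 in wild type, without overlap, and fell by 0.52 on the log2 scale (adjusted p = 0.0024). In gal11-myc med3Δ it read 0.00, 0.23 and -0.19 and fell by 0.37 (adjusted p = 0.028), with overlapping groups and a call that was lost in 4 of 6 fits without 1 array (adjusted p up to 0.147). SDH3, an anchor subunit, was the only 1 of the 34 genes to rise in gal11Δ med3Δ in YPD. It read 0.11, 0.12 and 0.14 in gal11Δ med3Δ and 0.01, -0.03 and -0.08 in wild type there, a difference of 0.16 ± 0.06 that lost its call in 5 of 6 fits without 1 array (adjusted p up to 0.0821). In CSM SDH3 was 0.32, 0.16 and 0.23 against -0.04, -0.15 and -0.14, a difference of 0.34 ± 0.06 (adjusted p = 7.71e-05), and the other anchor, SDH4, rose by 0.32 ± 0.12 (adjusted p = 0.0295). Without gal11Δ med3Δ replicate 1, where SDH4 read 0.55, that difference was 0.19 (adjusted p = 0.161). SDH1, the flavoprotein subunit, passed in no comparison; its largest difference was -0.50 ± 0.20 in gal11-myc med3Δ in CSM (adjusted p = 0.0537), where the groups did not overlap.

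The bc1 complex, which passes electrons from ubiquinol to cytochrome c, had 5 of the 8 subunits listed here lower in gal11Δ med3Δ in YPD and none higher, with a median of -0.47. CYT1, the cytochrome c1 haem subunit, read -0.48, -0.21 and -0.28 in gal11Δ med3Δ and 0.49, 0.38 and 0.20 in wild type, a difference of -0.68 ± 0.12 (adjusted p = 0.00015). QCR10, a small subunit, had the largest fall of the complex, -0.80 ± 0.18 (adjusted p = 0.00178), from -0.51, -0.45 and -0.63 against 0.45, 0.34 and 0.00. The hinge protein QCR6 fell by 0.60 on the log2 scale, QCR7 by 0.47 and QCR9 by 0.48, and for each all mutant arrays lay below all wild-type arrays. QCR8 did not pass at -0.29 ± 0.16, although its groups did not overlap, and the core subunit QCR2 read -0.19 ± 0.12. In gal11-myc med3Δ in YPD QCR6 (-0.42 ± 0.11) and QCR7 (-0.27 ± 0.07) fell.

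RIP1, the Rieske iron-sulphur protein and the gene on chromosome V, was the only 1 of the 8 listed bc1 genes with a positive difference in gal11Δ med3Δ in YPD. It read 0.11, 0.28 and 0.06 in that mutant and 0.11, 0.00 and -0.44 in wild type, and the difference of 0.26 ± 0.15 did not pass (adjusted p = 0.168). The chromosome median of 0.79 in the same comparison stands beside it, and its part in the value was not tested. In CSM, where the median of chromosome V was 0.16, RIP1 was at -0.18 ± 0.15. In CSM CYT1 alone of the 8 listed bc1 genes passed, in gal11Δ med3Δ (-0.30 ± 0.12, adjusted p = 0.0418), and it lost that call in 5 of 6 fits without 1 array (adjusted p up to 0.151). Without gal11Δ med3Δ replicate 1 CYT1 was at -0.41 (adjusted p = 0.0107) and QCR6 passed too, at -0.32 (adjusted p = 0.0336). None of the 8 passed in gal11-myc med3Δ in CSM, where all but QCR8 had negative differences, down to -0.28.

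CYC1, iso-1-cytochrome c, moved in opposite directions in the mutants. In YPD it read -0.34, -0.34 and -0.67 in gal11Δ med3Δ, 0.35, 0.63 and 0.19 in gal11-myc med3Δ and 0.03, 0.00 and -0.25 in wild type. In CSM it read -0.34, -0.26 and -0.28, then 0.28, 0.20 and 0.30, then 0.00, 0.02 and 0.00 in the same order of strains. The 3 groups did not overlap in either medium, with wild type in the middle. CYC1 fell in gal11Δ med3Δ by 0.38 ± 0.11 in YPD (adjusted p = 0.00822) and by 0.30 ± 0.11 in CSM (adjusted p = 0.0306). It rose in gal11-myc med3Δ by 0.47 ± 0.11 in YPD (adjusted p = 0.0028) and did not pass at 0.25 ± 0.11 in CSM (adjusted p = 0.0717). The difference between the mutants, gal11Δ med3Δ minus gal11-myc med3Δ, was -0.84 ± 0.11 in YPD (adjusted p = 2.08e-05) and -0.55 ± 0.11 in CSM (adjusted p = 0.00156). The YPD fall in gal11Δ med3Δ missed the threshold without its replicate 3 (-0.27, adjusted p = 0.052), and the CSM fall missed it without any 1 of the 6 arrays (adjusted p between 0.0514 and 0.0738).

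Cytochrome c oxidase, which reduces oxygen to water, had 7 of the 8 listed nuclear subunits lower in gal11Δ med3Δ in YPD, all with groups that did not overlap. COX4, a zinc-binding subunit, had the largest fall, -0.92 ± 0.15 (adjusted p = 0.000102), with -0.70, -0.60 and -0.82 in gal11Δ med3Δ and 0.38, 0.26 and 0.00 in wild type. COX5A, the isoform of subunit V used in the presence of oxygen, read -0.29, -0.20 and -0.26 against 0.41, 0.37 and 0.15 and fell by 0.56 on the log2 scale. COX6, COX7, COX8, COX9 and COX13 fell by 0.38 to 0.58, and COX8 missed the threshold in 4 of 6 fits without 1 array (adjusted p up to 0.0677). COX12 did not pass at -0.09 ± 0.08. In gal11-myc med3Δ in YPD COX5A (-0.35 ± 0.10) and COX9 (-0.25 ± 0.09) fell, and each lost its call in at least 3 of 6 fits without 1 array.

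In CSM 3 oxidase subunits rose in gal11Δ med3Δ and none fell. COX9, a small subunit of the membrane domain, read 0.32, 0.28 and 0.31 in gal11Δ med3Δ and 0.05, 0.00 and -0.04 in wild type, a difference of 0.30 ± 0.09 (adjusted p = 0.00987). COX12 read 0.13, 0.31 and 0.27 against -0.18, -0.24 and -0.26, a difference of 0.46 ± 0.08 (adjusted p = 0.000212). COX7 read -0.19, 0.26 and 0.36 against -0.09, -0.22 and -0.30, and its difference of 0.35 ± 0.12 became 0.51 without replicate 1 of the mutant and lost its call in 4 of 6 fits without 1 array (adjusted p up to 0.145). COX8 had the most negative CSM difference of the complex, -0.49 ± 0.20 (adjusted p = 0.0556), from -1.13, 0.00 and 0.00 against 0.14, 0.11 and 0.09. Without replicate 1 that difference was -0.11, so its size in CSM came from that array. In gal11-myc med3Δ COX12 rose by 0.25 ± 0.08 (adjusted p = 0.0283) and lost the call in 4 of 6 fits without 1 array.

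All 10 listed ATP synthase genes had negative differences in gal11Δ med3Δ in YPD, and 8 of them fell. ATP14, subunit h of the peripheral stalk region, varied little within groups. It read -0.27, -0.23 and -0.24 in gal11Δ med3Δ, 0.00, 0.18 and -0.07 in gal11-myc med3Δ and 0.30, 0.32 and 0.33 in wild type, which did not overlap. Its differences were -0.56 ± 0.07 (adjusted p = 9.9e-06) and -0.28 ± 0.07 (adjusted p = 0.00714), and in CSM they were -0.29 ± 0.07 and -0.20 ± 0.07 for the mutants in the same order, the last lost without any 1 of the 6 arrays. ATP20, subunit g, which takes part in dimerisation of the enzyme, fell by 0.59 on the log2 scale in gal11Δ med3Δ in YPD (-0.37, -0.28 and -0.42 against 0.27, 0.30 and 0.13). ATP18 (-0.47), ATP7 (-0.46), ATP5 (-0.38), ATP17 (-0.33), ATP16 (-0.24) and ATP4 (-0.19) made up the other falls; ATP4 missed the threshold in 2 of 6 fits without 1 array (adjusted p up to 0.0864). The catalytic beta subunit ATP2 (-0.19 ± 0.12) and the epsilon subunit ATP15 (-0.19 ± 0.09) did not pass. ATP14 was the only ATP synthase gene of the 10 to pass in CSM in either mutant or in YPD in gal11-myc med3Δ, and without gal11Δ med3Δ replicate 1 ATP17 passed in CSM too (0.25, adjusted p = 0.0347).

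**Figure D3:**
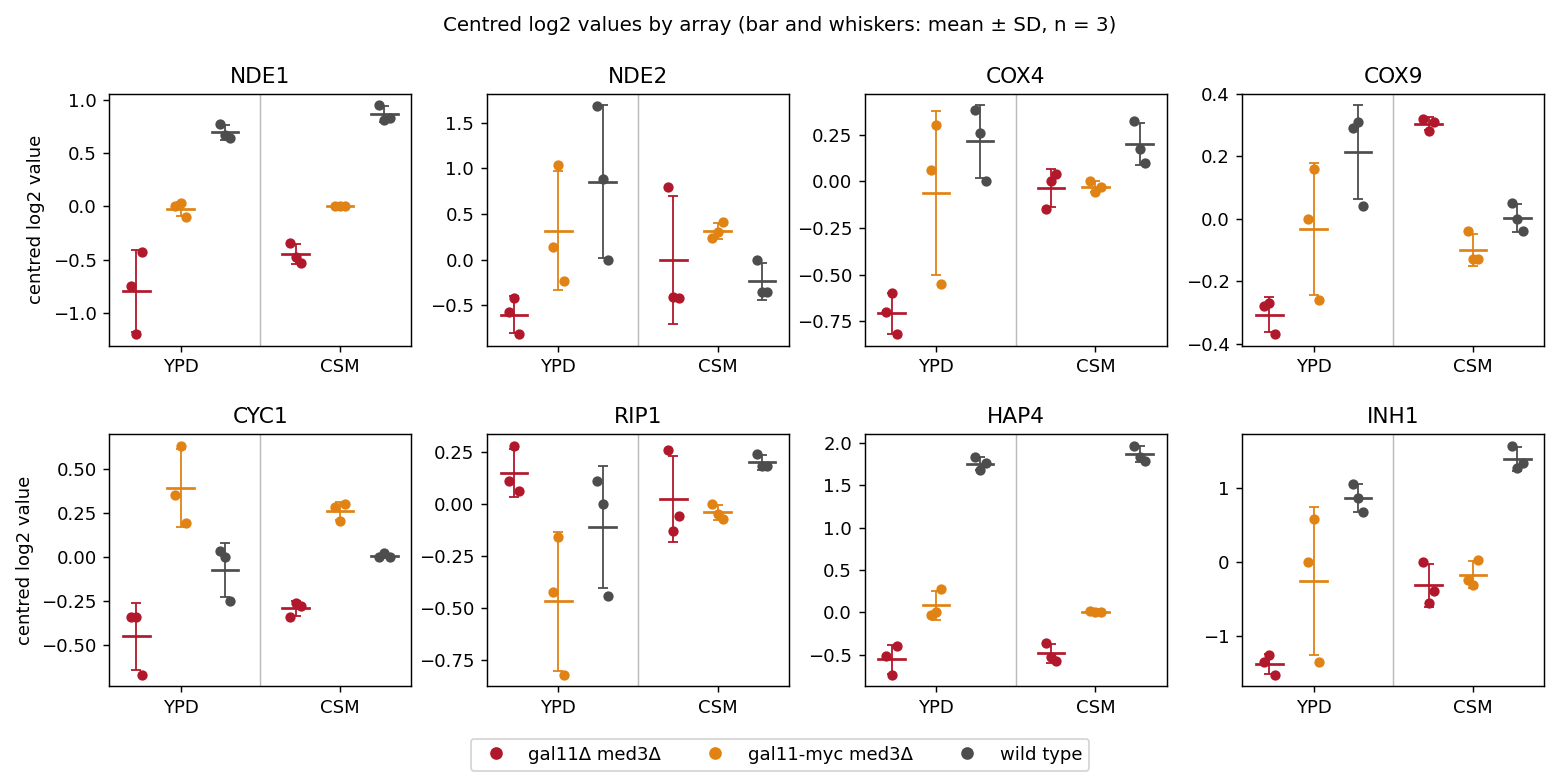
Centred log2 value on each array for 6 of the 34 genes and for HAP4 and INH1; in each medium the groups run gal11Δ med3Δ, gal11-myc med3Δ, wild type, points are arrays, and bars with whiskers are mean ± SD (n = 3). NDE1 and HAP4 separate both mutants from wild type in both media, CYC1 lies above wild type in gal11-myc med3Δ and below it in gal11Δ med3Δ, and COX4 and COX9 are below wild type in gal11Δ med3Δ in YPD while COX9 is above it in CSM.

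The effect of gal11Δ med3Δ depended on the medium for 15 of the 34 genes, tested as the CSM difference minus the YPD difference in the same fit, and for all 15 the value was positive. Over all genes 15.1% had a higher and 16% a lower difference in CSM. Off chromosomes II and V, 812 of 4803 genes had a higher and 425 a lower difference. The median over the 34 genes was 0.32, and 31 of them had a positive value. Cytochrome c oxidase carried 6 of the 15, with a median of 0.56 over its 8 genes: COX9 (0.82 ± 0.13, adjusted p = 9.9e-05), COX7 (0.81 ± 0.17, adjusted p = 0.00169), COX4, COX5A, COX12 and COX13. COX9 showed the pattern plainly, with a YPD difference of -0.52 ± 0.09 and a CSM difference of 0.30 ± 0.09, both past the threshold and without overlap between groups. ATP synthase carried 5 (ATP4, ATP5, ATP16, ATP17 and ATP18), the bc1 complex 2 (QCR7 and QCR9), succinate dehydrogenase SDH2, and the NADH dehydrogenases NDE2. NDE1 had 0.18 ± 0.18 and CYC1 0.08 ± 0.15, so their falls in gal11Δ med3Δ showed no detectable difference between media. RIP1 had the most negative value, -0.44 ± 0.22 (adjusted p = 0.135), beside a chromosome V median that was 0.79 in YPD and 0.16 in CSM.

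The count of 15 ranged from 10 to 19 as each of the 12 arrays was left out and was 19 without gal11Δ med3Δ CSM replicate 1. Over all 5449 genes 648 to 1010 were higher in those fits, and 950 without that replicate. Without that array QCR8 (0.41), QCR10 (0.84), COX8 (0.47), ATP7 (0.41), ATP14 (0.36) and ATP20 (0.67) also passed, while NDE2 (1.28, adjusted p = 0.0727) and SDH2 no longer did. NDE2 lost its call in 7 of the 12 such fits, SDH2 in 6 and ATP18 in 8. In gal11-myc med3Δ none of the 34 genes passed the limma test of medium dependence, and 1 had an unadjusted p under 0.05 (5.51% of all genes were higher and 8.17% lower in CSM). Its median was 0.12. The medium dependence of gal11Δ med3Δ minus that of gal11-myc med3Δ, a contrast added after the data were seen, was past the threshold for COX9 (0.68 ± 0.13, adjusted p = 0.00142), COX12 (0.38 ± 0.12, adjusted p = 0.0456) and QCR7 (0.32 ± 0.10, adjusted p = 0.0485), where 5.74% of all genes were higher and 5.6% lower. COX12 and QCR7 lost it in 10 of 12 fits without 1 array, and the count was 12 without gal11-myc med3Δ YPD replicate 3, 10 without gal11Δ med3Δ CSM replicate 1, 2 in 2 further fits and 1 in the other 8. Over all 5449 genes 413 were higher in the first of these fits, 379 in the second, and 225 to 316 in the rest. For the remaining 31 genes the data do not show that the mutants differed in their dependence on medium.

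**Figure D4:**
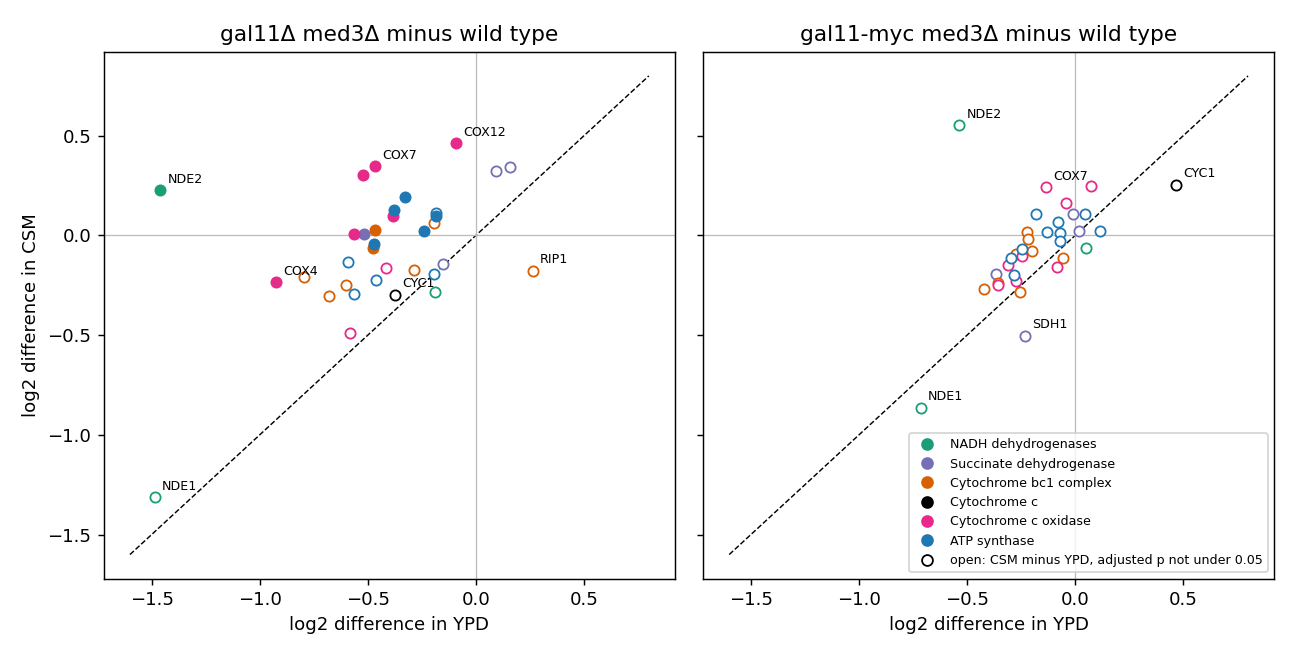
Log2 difference from wild type in CSM (vertical) against that in YPD (horizontal) for each of the 34 genes in gal11Δ med3Δ (left) and gal11-myc med3Δ (right); colours are complexes, filled points passed the test of CSM minus YPD, and the dashed line marks equal differences. At left 31 points lie above the line and 15 are filled; at right none is filled.

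Set directly against each other in YPD, gal11Δ med3Δ was lower than gal11-myc med3Δ in 11 of the 34 genes and higher in 1, where 6.15% of all genes were lower and 8.96% higher, with a median of -0.25. The 11 were NDE1 (-0.77 ± 0.12), CYT1, QCR9, QCR10 (-0.60 ± 0.18), CYC1, COX4 (-0.65 ± 0.15, adjusted p = 0.00708), COX6, COX9, COX13, ATP14 and ATP16 (-0.29 ± 0.06, adjusted p = 0.00228), and the 1 was RIP1 on chromosome V (0.62 ± 0.15). COX4 read -0.70, -0.60 and -0.82 on the gal11Δ med3Δ arrays, against 0.06, 0.30 and -0.55 on those of gal11-myc med3Δ, whose replicate 3 stood near the other mutant. The count of 11 was 19 without that replicate 3, 4 without gal11-myc med3Δ replicate 2, 7 without gal11-myc med3Δ replicate 1, 7 without gal11Δ med3Δ replicate 3 and 5 without gal11Δ med3Δ replicate 1. In the same order 506, 173, 163, 273 and 210 of 5449 genes were lower in those fits. A fit of the 6 arrays alone left 1, CYC1. The 9 YPD arrays gave 3, of which only NDE1 and CYC1 were among the 11. The same 9 with the replicate number as a block gave 13, of which QCR9 was not one. Over all 5449 genes 125, 144 and 528 were lower in these 3 fits. In CSM gal11Δ med3Δ was lower in NDE1 (-0.45 ± 0.12, adjusted p = 0.0192) and CYC1 and higher in SDH3 (0.24 ± 0.06, adjusted p = 0.00723) and COX9 (0.41 ± 0.09, adjusted p = 0.00409), where 7.65% of all genes were lower and 10.3% higher. NDE1 lost that CSM call in 5 of 6 fits without 1 array (adjusted p up to 0.0675).

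HAP4, the activating subunit of the complex that drives most of these genes, fell in all 4 comparisons. In YPD it read -0.52, -0.74 and -0.40 in gal11Δ med3Δ, -0.03, 0.00 and 0.28 in gal11-myc med3Δ and 1.83, 1.68 and 1.76 in wild type. In CSM it read -0.36, -0.53 and -0.57, then 0.02, 0.00 and 0.00, then 1.97, 1.84 and 1.79 in the same order of strains. All mutant arrays lay more than 1 log2 unit below the wild-type arrays in both media. The differences were -2.31 ± 0.17 and -2.35 ± 0.17 in gal11Δ med3Δ in YPD and CSM, and -1.67 ± 0.17 and -1.86 ± 0.17 in gal11-myc med3Δ (adjusted p at most 1.57e-06). Its medium dependence was -0.04 ± 0.24 in gal11Δ med3Δ (adjusted p = 0.921), beside a median difference of the 34 genes of -0.44 in YPD and -0.05 in CSM.

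Of the DNA-binding partners of Hap4, HAP5 changed less and HAP3 lay on a shifted chromosome. HAP2 rose in gal11Δ med3Δ in YPD and fell in gal11-myc med3Δ in CSM. HAP5 rose by 0.40 ± 0.10 in gal11Δ med3Δ and by 0.39 ± 0.10 in gal11-myc med3Δ in YPD and did not pass in CSM. HAP3 fell in CSM, at -1.23 ± 0.07 for gal11Δ med3Δ and -1.06 ± 0.07 for gal11-myc med3Δ, where its chromosome II had medians of -0.72 and -0.74, and was at 0.16 ± 0.07 and -0.02 ± 0.07 in YPD. The part of the chromosome shift in the HAP3 value was not tested. HAP1 fell in CSM in gal11-myc med3Δ, at -0.22 ± 0.08 (adjusted p = 0.0373) and was between -0.21 and -0.14 without passing in the other 3 comparisons. Of all genes 27.5% rose and 19.4% fell in gal11Δ med3Δ in YPD and 27.1% and 18.4% in CSM, and 21.2% and 12.1% in gal11-myc med3Δ in YPD and 22.4% and 14.2% in CSM. Of the 5 regulator genes, gal11Δ med3Δ had 2 higher and 1 lower in YPD and 2 lower in CSM, and gal11-myc med3Δ had 1 higher and 1 lower in YPD and 4 lower in CSM.

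A further 12 subunits, isoforms and inhibitors of the same complexes were measured. INH1, the inhibitor of ATP hydrolysis by ATP synthase, read -1.36, -1.26 and -1.53 in gal11Δ med3Δ, 0.00, 0.58 and -1.36 in gal11-myc med3Δ and 1.05, 0.86 and 0.67 in wild type in YPD. It fell in all 4 comparisons, with -2.24 ± 0.32 in YPD and -1.71 ± 0.32 in CSM for gal11Δ med3Δ, and -1.12 ± 0.32 and -1.57 ± 0.32 for gal11-myc med3Δ. The gal11-myc med3Δ arrays varied widely in YPD, with replicate 3 lowest, and the authors' deposited table gave that fall a corrected p of 0.35. SHH3, a homologue of SDH3, fell in YPD, at -2.55 ± 0.21 for gal11Δ med3Δ and -2.14 ± 0.21 for gal11-myc med3Δ. In CSM SHH3 fell less in gal11Δ med3Δ and did not fall in gal11-myc med3Δ, with CSM minus YPD values of 1.595 and 2.28. In that list 7 genes fell and 3 rose in gal11Δ med3Δ in YPD (19.4% and 27.5% of all genes), and 5 fell and 2 rose in CSM (18.4% and 27.1%). For the 8 of them off chromosomes II and V, 4 fell and 2 rose in YPD, where 968 and 1183 of 4803 genes did. In CSM 2 of the 8 fell and 2 rose, where 668 and 1355 of 4803 genes did. COR1, a core subunit of the bc1 complex, fell in CSM, at -0.98 ± 0.11 for gal11Δ med3Δ and -0.93 ± 0.11 for gal11-myc med3Δ, but it lies on chromosome II. In YPD, where the median of chromosome II was 0.03 in gal11Δ med3Δ, COR1, ATP1 and ATP3 all fell in that mutant. COX5B, the low-oxygen isoform that stands in for COX5A, rose in all 4 comparisons, by 0.75 ± 0.14 in YPD and 0.74 ± 0.14 in CSM for gal11Δ med3Δ and by 0.99 ± 0.14 and 0.53 ± 0.14 for gal11-myc med3Δ. In YPD COX5B read 0.07, 0.00 and -0.25 in gal11Δ med3Δ, 0.26, 0.24 and 0.04 in gal11-myc med3Δ and -0.88, -1.10 and -0.46 in wild type, with every mutant array above the wild-type arrays, whereas COX5A fell in both mutants in YPD. CYC7, the low-oxygen isoform of cytochrome c, rose by 1.44 ± 0.49 in gal11Δ med3Δ in YPD (adjusted p = 0.0239), beside the median of 0.79 of its chromosome V, and did not pass in CSM (0.05) or in gal11-myc med3Δ (0.66 in YPD and -0.08 in CSM). COX5B and CYC7 were picked out after their values were seen.

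Of the 50 factors for assembly and expression of the complexes, 21 rose and 7 fell in gal11Δ med3Δ in YPD, with a median of 0.17, where 27.5% of all genes rose and 19.4% fell. Off chromosomes II and V lie 42 of the 50, and of these 15 rose and 6 fell, where 1183 and 968 of 4803 genes did. The steepest fall in this list was NCA3, which takes part in expression of mitochondrial ATP synthase genes, at -3.72 ± 0.40 in YPD and -2.59 ± 0.40 in CSM for gal11Δ med3Δ, and at -2.23 ± 0.40 in YPD for gal11-myc med3Δ. PET117, a factor for oxidase assembly, rose by 2.06 ± 0.24 in gal11Δ med3Δ in YPD beside its chromosome V median of 0.79. CBP6 (-0.85 ± 0.07 and -1.12 ± 0.07 in gal11Δ med3Δ and gal11-myc med3Δ in CSM) and TCM62 (-0.93 ± 0.05 in gal11-myc med3Δ in CSM) lie on chromosome II. In CSM 11 of the 50 fell and 4 rose in gal11Δ med3Δ (18.4% and 27.1% of all genes). In gal11-myc med3Δ 8 fell and 3 rose (14.2% and 22.4%). Of the 42 genes off the shifted chromosomes 7 fell and 3 rose in gal11Δ med3Δ, where 668 and 1355 of 4803 genes did. In gal11-myc med3Δ 4 of the 42 fell and 2 rose, where 423 and 1148 of 4803 genes did.

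Of 10 genes of coenzyme Q biosynthesis, which make the ubiquinone that links the dehydrogenases to the bc1 complex, 8 rose and none fell in gal11Δ med3Δ in YPD, where 27.5% of all genes rose, and 7 rose and none fell in gal11-myc med3Δ, where 21.2% did. COQ5 rose by 0.80 ± 0.08 and 0.75 ± 0.08, and COQ6 by 0.77 ± 0.10 and 0.69 ± 0.10, in those comparisons. In CSM 5 rose and 1 fell in each mutant (27.1% and 22.4% of all genes rose), the fall being COQ1 on chromosome II (-1.22 ± 0.11 and -1.06 ± 0.11), and CAT5, another enzyme of this pathway, rose by 0.60 ± 0.09 and 0.40 ± 0.09. Of 5 other electron donors, 2 rose and 1 fell in gal11Δ med3Δ in YPD (27.5% and 19.4% of all genes). In CSM 1 rose and 1 fell (27.1% and 18.4%). In gal11-myc med3Δ 2 rose and none fell in each medium (21.2% and 12.1% in YPD, 22.4% and 14.2% in CSM). MCR1, a mitochondrial NADH-cytochrome b5 reductase, was the gene that fell in gal11Δ med3Δ, at -0.42 ± 0.11 in YPD (adjusted p = 0.00681) and -0.34 ± 0.11 in CSM (adjusted p = 0.0239). GUT2, the mitochondrial glycerol-3-phosphate dehydrogenase that also passes cytosolic reducing equivalents to ubiquinone, rose in all 4 comparisons. GUT2 read 0.56, 0.38 and 0.35 in gal11Δ med3Δ in CSM and -0.91, -1.17 and -1.08 in wild type, a rise of 1.48 ± 0.15, and it rose by 1.11 ± 0.15 in YPD. For gal11-myc med3Δ the rises of GUT2 were 1.08 ± 0.15 in CSM and 0.57 ± 0.15 in YPD.

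Of 11 citric acid cycle genes 4 rose and 3 fell in gal11Δ med3Δ in YPD (27.5% and 19.4% of all genes) and 5 rose and 4 fell in CSM (27.1% and 18.4%). In gal11-myc med3Δ 5 rose and none fell in YPD (21.2% and 12.1% of all genes), and 3 rose and 2 fell in CSM (22.4% and 14.2%). CIT1, citrate synthase, rose in YPD by 0.73 ± 0.18 for gal11Δ med3Δ and 0.53 ± 0.18 for gal11-myc med3Δ, LSC1, a succinyl-CoA ligase subunit, rose by 0.57 ± 0.06 and 0.61 ± 0.06 in gal11Δ med3Δ in YPD and CSM, and FUM1, fumarase, rose by 0.58 ± 0.07 and 0.52 ± 0.07 in gal11-myc med3Δ in YPD and CSM. ACO1, aconitase, fell in CSM in gal11-myc med3Δ, at -0.76 ± 0.20. Of 7 carriers and porins for adenine nucleotides and phosphate, 2 rose and 2 fell in gal11Δ med3Δ in YPD (27.5% and 19.4% of all genes). In CSM 3 rose and 2 fell (27.1% and 18.4%). In gal11-myc med3Δ 2 rose and none fell in YPD (21.2% and 12.1%), and 1 rose and 2 fell in CSM (22.4% and 14.2%). POR2, a minor porin, rose in YPD by 1.05 ± 0.12 for gal11Δ med3Δ and 0.99 ± 0.12 for gal11-myc med3Δ, and AAC3, the low-oxygen ADP/ATP carrier on chromosome II, by 0.82 ± 0.14 and 1.32 ± 0.14. PIC2, a phosphate carrier on chromosome V, fell in CSM, at -0.56 ± 0.22 and -0.82 ± 0.22, and PET9, the main ADP/ATP carrier, on chromosome II, fell there in gal11Δ med3Δ, at -0.50 ± 0.08.

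**Figure D5:**
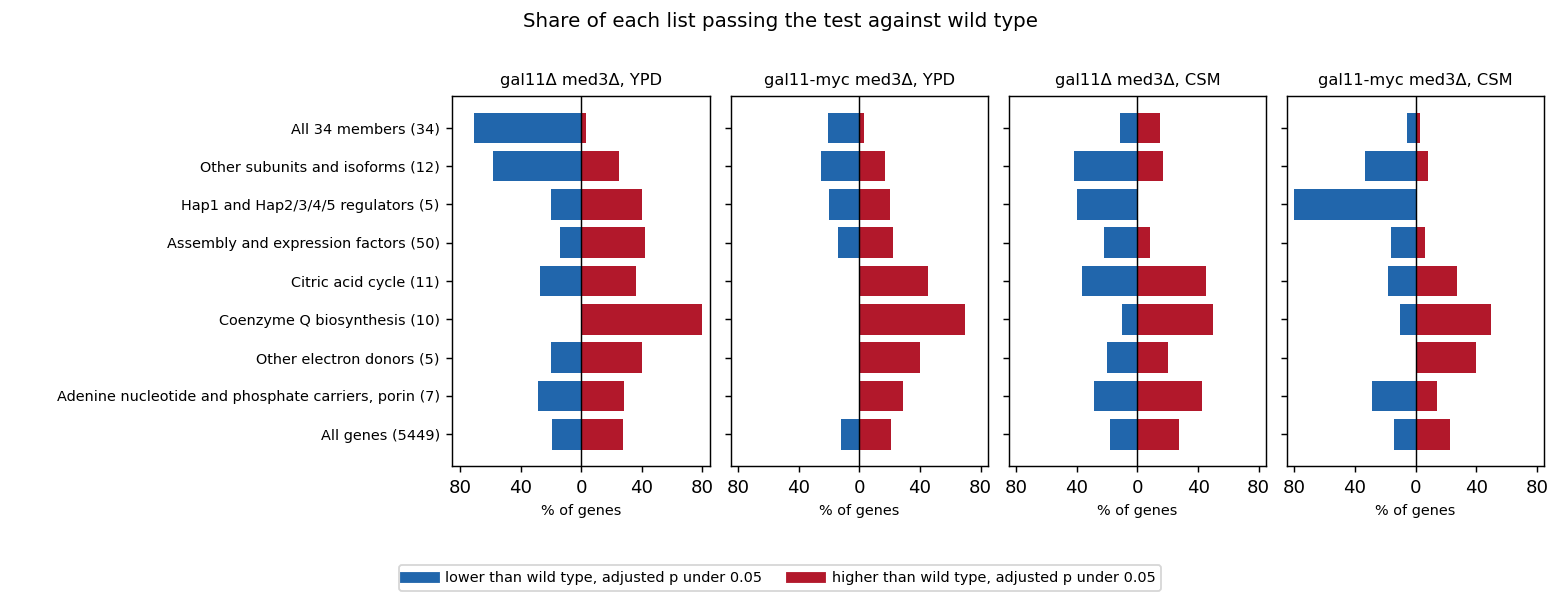
Share of each gene list (percent; number of genes in brackets) that was lower (blue, to the left) or higher (red, to the right) than wild type at an adjusted p under 0.05, in the 4 comparisons, with the same shares of all 5449 genes at the bottom. In gal11Δ med3Δ in YPD the 34 genes fell in 24 and rose in 1, while coenzyme Q biosynthesis rose in 8 of 10 genes.

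Mating type also separates gal11Δ med3Δ from its wild type, and its arrays cannot be set against BY4742 because of the centring. The authors' deposited table does compare the wild types in YPD. Its signs, read from the strains' own deletions (LYS2 88.4-fold lower and MET17 440-fold higher), run as BY4742 over the MATa wild type, and MFA2 and STE3, which mark mating type, differed by -164-fold and 38.6-fold there, although the label of BY4742 reads MATa. None of the 34 genes in the authors' deposited table had a corrected p under 0.05 there, and few genes did at all (17 of 5475 probe sets with a gene, or 0.311%), and 2, COX8 and ATP4, had an uncorrected p under 0.05. The largest difference among them in the authors' deposited table was 1.51-fold, for NDI1, and NDE1 differed by 1.08-fold. Of the 34 genes 27 were lower in BY4742 in the authors' deposited table, with a median log2 difference of -0.089, against -0.024 over all probe sets; the corresponding median for gal11Δ med3Δ in YPD, which rests on the same wild-type arrays, was -0.417. HAP4 was 1.62-fold higher in BY4742 in the authors' deposited table (p = 0.0638, corrected p = 0.503). Between each mutant and the wild type, the authors' deposited table had a corrected p under 0.05 for 18 of the 34 genes in gal11Δ med3Δ in YPD (17 lower and 1 higher, where 22% of the probe sets with a gene had one) and for 1 in gal11-myc med3Δ in YPD (8.35%). In CSM the authors' deposited table had 5 for gal11Δ med3Δ (2 lower and 3 higher, 30.2%) and 15 for gal11-myc med3Δ (12 lower and 3 higher, 51%).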

How the data were processed

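Per the submitters' processing notes the arrays were summarised with RMA. The deposited values are log2 intensities centred by the authors on each probe set's median within 3 sets of arrays, which was checked on the values (100% of the 10928 probe sets). Differences between those sets are lost, so CSM was not set against YPD in wild type, and BY4742 added only to the estimate of spread. The authors' deposited table holds signed fold changes (a score with a gap between -1 and 1), p-values and corrected p-values, made with GeneSpring 11.5.1 per the file headers; its test is not given in the sources used here. The number of arrays limits the precision.

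Of the 10928 probe sets, 7244 carried 1 gene symbol, 1 several and 3683 none in the platform annotation, and 5498 matched a gene of the RefSeq R64 table. Values of a gene's probe sets were averaged (47 genes had more than 1), which left 5449 genes. limma 3.58.1 in R 4.3.3 fitted 7 group means with 14 residual degrees of freedom (lmFit, eBayes, 2-sided, Benjamini-Hochberg over 5449 genes). Tables were made with Python 3.11.15 and pandas 2.3.3. The fit was tested on simulated data.

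All 34 genes could be named. Of each pathway list at most the 2 called genes with the largest absolute difference per comparison were named, and HAP1 and HAP4 always. COX5B and CYC7 were added after their values were seen, and HAP2, ATP1 and ATP3 are named without values. GAL11, PGD1, LYS2, MET17, MFA2 and STE3 served to check the strains. The members and lists were chosen with earlier results of these data known. Replicate numbers come from the titles. In YPD, deviations from the group means correlated between same-numbered arrays by 0.18, 0.51 and 0.44 (gal11Δ med3Δ and wild type) and 0.15, 0.40 and 0.53 (gal11-myc med3Δ and wild type), whereas in CSM they lay between -0.22 and 0.22. By the rule used here that pairs the YPD arrays, but arrays numbered 1 and 2 also correlated across numbers. Replicate 2 and wild type replicate 1 correlated by 0.19 in gal11Δ med3Δ and 0.45 in gal11-myc med3Δ. Replicate 3 and wild type replicate 1 correlated by -0.24 and -0.38. The numbers thus set the arrays numbered 3 apart and do not pair arrays 1 and 2. The fit reported has no replicate block, and blocked counts are given where they differ by over 1.5 times. Alternatives were a replicate block, fewer arrays in the fit, group-wise weights, arrays shifted to median 0, other handling of probe sets, and each array left out. A planned search of promoters for motifs was not run, because no promoter sequences were used here.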

Additional observations from a re-analysis of the deposited data

Results flagged for a closer look

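The effect of gal11Δ med3Δ differed between media, by the test of the CSM difference minus the YPD difference, for 15 of the 34 genes. The values were 1.69 for NDE2, 0.52 for SDH2, 0.495 for QCR7, 0.41 for QCR9, 0.69 for COX4, 0.57 for COX5A, 0.81 for COX7, 0.82 for COX9, 0.56 for COX12 and 0.48 for COX13. For the ATP synthase genes they were 0.29 for ATP4, 0.50 for ATP5, 0.26 for ATP16, 0.52 for ATP17 and 0.43 for ATP18. All are positive, that is, less negative or more positive in CSM than in YPD.

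The same test singled out named pathway genes. SHH3 had 1.595 in gal11Δ med3Δ and 2.28 in gal11-myc med3Δ. Negative values off chromosomes II and V were found for HAP5 (-0.44 in gal11Δ med3Δ, -0.51 in gal11-myc med3Δ), COQ5 (-0.58 and -0.47), POR2 (-0.73 and -0.68), and in gal11Δ med3Δ CIT1 (-0.885) and COQ6 (-0.51). Genes of chromosome II, whose medians were -0.72 and -0.74 in CSM, were COR1 (-0.44 and -0.605), HAP3 (-1.39 and -1.04), CBP6 (-0.79 and -0.92), SCO2 (-1.402 and -1.499), TCM62 (-0.51 and -0.75) and COQ1 (-1.25 and -1.04), and in gal11-myc med3Δ AAC3 (-0.74) and PET9 (-0.35). PET117 on chromosome V had -1.84 in gal11Δ med3Δ, beside a chromosome median of 0.79 in YPD. The part of the chromosome shifts in these values was not tested. Groups of 3 arrays were not screened for single outlying arrays.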

How the results depend on the processing

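Counts are of the 34 genes, and causes of the changes were not tested unless the setting itself has fewer arrays or genes. Shares of all genes moved with the setting as well, so a moved count is not by itself a change relative to all genes. For gal11Δ med3Δ in YPD, the 24 falls stayed within 1.5 times under every setting (21 to 25 without 1 array, median -0.465 to -0.393). The 1 rise became 0 with only the arrays compared, group-wise weights, every probe set tested, only the 9 YPD arrays, or without the 3 YPD arrays numbered 3 (0 to 1 without 1 array). In CSM its 5 rises became 3 with only the arrays compared (3 to 5 without 1 array), its 4 falls became 2 with every probe set, 7 with only the 9 CSM arrays and 7 without the YPD arrays numbered 3 (2 to 4 without 1 array), and the median became -0.092 with arrays shifted to median 0 (-0.093 to -0.010 without 1 array). For gal11-myc med3Δ in YPD the 1 rise became 0 and the 7 falls 1 with only the arrays compared; the falls were 2 with only the 9 YPD arrays and 12 with those and a replicate block (rises 1 to 2, falls 4 to 11 and median -0.264 to -0.080 without 1 array). In CSM its 1 rise and 2 falls became 7 and 14 with only the arrays compared, 7 and 12 with weights, 0 and 6 with shifted arrays, 0 and 1 with every probe set, 2 and 8 with only the 9 CSM arrays, 2 and 6 with those and a replicate block, and 3 and 7 without the YPD arrays numbered 3; falls were 1 with chromosomes II and V left out (0 to 1 rises, 1 fall and median -0.087 to -0.041 without 1 array). Medium dependence was higher for 10 to 19 genes in gal11Δ med3Δ and 0 in gal11-myc med3Δ without 1 array. For gal11Δ med3Δ minus gal11-myc med3Δ in YPD, the 1 higher became 0 with only the arrays compared, with chromosomes II and V left out or with only the 9 YPD arrays, and 2 with shifted arrays, and the 11 lower became 1, 3 and 18 with only the arrays compared, only the 9 YPD arrays and without the YPD arrays numbered 3 (0 to 2 and 4 to 19 without 1 array). In CSM the 2 higher became 5 with only the 9 CSM arrays, also with a replicate block, and 4 without the YPD arrays numbered 3 (2 to 3 higher and 1 to 2 lower without 1 array). The 3 genes whose medium dependence differed between mutants became 1 with only the arrays compared, without BY4742, with weights, with shifted arrays, with every probe set and with chromosomes II and V left out, and 14 without the YPD arrays numbered 3 (1 to 12 higher, 0 to 1 lower without 1 array). A replicate block over all arrays moved none of these counts by over 1.5 times (24 falls in gal11Δ med3Δ and 7 in gal11-myc med3Δ in YPD, 3 and 3 in CSM). Among 214 called values of single genes, 3566 of 3985 alternatives kept the call, 419 lost it and none reversed.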
